A study of Mus musculus with 19 samples.

Results

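The 10 genes of the imprinted growth network followed here in mouse fat cells and brown fat with and without Med1 were Mest, Dlk1, Igf2, H19, Meg3, Peg3, Plagl1, Cdkn1c, Grb10 and Ndn. The set was chosen by the contrast of knockout with wild-type cells, in which Mest fell most, so for these genes that contrast is given below as a description, with standard errors and intervals but no p-value. A gene was measured where a transcript cluster of the array was annotated with that symbol alone, and where several were, the cluster with the highest mean over the 19 arrays was used. By this rule 9 of the 10 genes had a value, among 22180 genes in all. H19 shares its row with the microRNA gene Mir675 and is named only. Meg3 had 2 more clusters and Peg3 1 more that carry several symbols, and these were left out. Plagl1 had 2 clusters with its symbol alone.

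An imprinted gene is transcribed mainly from the copy inherited from a single parent, and the choice is carried by DNA methylation set down in the egg or sperm. Mest, Dlk1, Igf2, Peg3, Plagl1 and Ndn are known as paternally expressed, and H19, Meg3 and Cdkn1c as maternally expressed, while Grb10 is maternal in most tissues and paternal in neurons. Many of these genes are active in the embryo, set its growth and are turned down after birth. In fat, DLK1 holds preadipocytes back from differentiation, and Mest is known for rising when fat tissue expands.

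The study asked what MED1 does in fat. MED1 is the subunit through which nuclear receptors contact Mediator, the coactivator complex of RNA polymerase II. The cells were 3T3-L1, a mouse fibroblast line that becomes fat cells under a hormone cocktail, as the parental wild type and as MED1-KO cells made with CRISPR/Cas9, with 2 arrays of each genotype on day 0 and 2 on day 2 by the sample titles. The knockout arrays held RNA pooled over clones, and the comparison was with the parental line. Interscapular brown fat at E17.5 came from Myf5Cre Med1 f/w embryos (3 control arrays) and Myf5Cre Med1 f/f embryos (4 knockout arrays). Both groups carried Cre and at least 1 floxed Med1 allele, and Myf5-Cre acts in precursors of skeletal muscle as well as of brown fat. Brown fat at 10 weeks came from Med1 f/f mice (2 control arrays) and AdipoqCre Med1 f/f mice (2 knockout arrays), where Adipoq-Cre acts in mature fat cells and the controls had no Cre. The labels do not say whether the arrays of a group stand for different animals or cultures, and the spread behind each p-value may therefore be technical.

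Signals are log2 values after RMA, the array method that corrects background and summarises probes, and 1 unit is a 2-fold step. The 3 experiments had different array medians (4.69 to 4.79 in cells, 3.49 to 3.57 in the embryo, 2.87 to 2.89 in the adult), and no level is compared between them. The day given in the title and in the source label differs for 4 of the 8 arrays of cells. Those titled day 2 replicate 1 are labelled as unstimulated, and those titled day 0 replicate 2 as stimulated. Days follow the titles here. In wild-type arrays titled day 0 the mean of the measured adipocyte genes was 5.23 and 5.10. In those titled day 2 it was 6.30 and 6.25. By source label, day 0 holds the replicate 1 arrays and day 2 the replicate 2 arrays, of both title days. Fits by source label therefore mix these values. Med1 itself was 6.99 to 7.16 in the 4 knockout cell arrays and 8.23 to 8.55 in the wild type. In the embryo it did not separate the groups: the arrays labelled f/w gave 6.94, 7.33 and 7.82 and those labelled f/f 6.88 to 7.10. In the adult it was 5.99 and 6.90 in controls and 5.28 and 5.13 in knockouts. Whether the Med1 probes lie in the deleted part was not checked. The brown fat marker Ucp1 was 10.07 to 11.59 in embryonic controls and 12.09 to 12.50 in adult controls, and Adipoq was 8.99 ± 0.02 (SD, n = 3) and 9.27 ± 0.03 (SD, n = 2) there. In the cell arrays Adipoq was 3.35 to 4.19, and the preadipocyte and fibroblast gene Pdgfra 10.82 to 11.11.

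The Mest sequences below show what lies before its alternative starts and the microRNA within the gene, since Mest carries the strongest change of the set. Promoter windows are the 250 bases before an annotated start, from RefSeq on GRCm38.p6, which held windows for 8 of the 10 genes (15 windows). Capitals mark TGCCGC or its complement GCGGCA, the motif to which ZFP57 binds when it is methylated. ZFP57 is a zinc finger protein that keeps the parental methylation at imprinted control regions. The motif, searched on both strands, was in 4 of the 15 windows, of 3 genes (Mest, Meg3 and Plagl1), and in 8.7% of 32841 windows of the same length; the Mest windows 2 and 3 start 3 bases apart and hold the same matches. The first Mest window (chr6:30733256-30733505, plus strand) held none and had 7 CpG dinucleotides. The second (chr6:30737800-30738049, plus strand) held 2 and had 14 CpG. The Meg3 window (chr12:109540746-109540995, plus strand) and the Plagl1 window (chr10:13090582-13090831, plus strand) held 1 each. A match is only a run of letters and was not tested for binding or methylation.
Mest start 1: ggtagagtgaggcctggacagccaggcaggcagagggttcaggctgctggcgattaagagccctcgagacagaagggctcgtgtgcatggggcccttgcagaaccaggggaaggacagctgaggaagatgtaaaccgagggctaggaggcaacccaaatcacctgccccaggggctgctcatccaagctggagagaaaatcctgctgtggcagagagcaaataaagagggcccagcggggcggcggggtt
Mest start 2: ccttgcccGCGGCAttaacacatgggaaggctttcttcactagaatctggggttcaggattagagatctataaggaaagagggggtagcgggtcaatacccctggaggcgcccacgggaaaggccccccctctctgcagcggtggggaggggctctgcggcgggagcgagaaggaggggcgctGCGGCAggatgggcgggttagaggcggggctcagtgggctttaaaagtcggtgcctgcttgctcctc
Meg3 start 1: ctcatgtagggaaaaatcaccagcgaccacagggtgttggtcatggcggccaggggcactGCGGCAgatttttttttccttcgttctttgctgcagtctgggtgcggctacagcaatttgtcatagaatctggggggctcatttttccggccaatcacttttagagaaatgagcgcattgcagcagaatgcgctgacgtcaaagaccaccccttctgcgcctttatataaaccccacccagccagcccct
Plagl1 start 1: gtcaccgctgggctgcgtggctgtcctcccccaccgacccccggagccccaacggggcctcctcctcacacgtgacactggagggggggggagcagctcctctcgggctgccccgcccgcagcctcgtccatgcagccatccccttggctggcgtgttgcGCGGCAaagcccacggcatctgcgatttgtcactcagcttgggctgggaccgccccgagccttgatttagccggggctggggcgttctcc

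The gene of the microRNA miR-335 lies inside Mest on the same strand, and its mature sequences are shown, 5′ to 3′ from RefSeq, with the seed (bases 2 to 8) in capitals. The Mir335 row lay under its array's lower quartile of signals on all 19 arrays, so it was too dim to be followed here. Calling a row dim below that quartile was decided once the values were known.
miR-335-5p: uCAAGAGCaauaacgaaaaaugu
miR-335-3p: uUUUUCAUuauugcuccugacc

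In MED1-KO 3T3-L1 cells, Mest, which encodes a membrane protein with a hydrolase fold, lost nearly all of its signal above the array median. Wild-type cells gave 8.45 and 7.76 on day 0 and 8.73 and 8.63 on day 2. Knockout cells gave 4.58 and 4.54 on day 0 and 4.30 and 4.58 on day 2. Every wild-type array lay over 3 log2 units above every knockout array, and all 4 knockout arrays were under the median signal of the array. The difference over the 4 pairs was -3.89 ± 0.17 (SE), and pair by pair it ran from -4.44 to -3.21. By title it was -3.54 on day 0 and -4.24 on day 2. By source label, whose days each mix both title days, it was -4.15 and -3.63, so the order turns with the label.

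Ndn, which encodes necdin, a MAGE-family protein that restrains cell division, had the next largest difference. Wild-type arrays gave 7.20 and 7.34 on day 0 and 7.10 and 7.86 on day 2, and knockout arrays 6.76 and 6.74, then 5.96 and 6.50. The groups did not overlap, and the paired difference was -0.89 ± 0.15, being -0.52 on day 0 and -1.25 on day 2 by title and -0.79 and -0.98 by source label. Igf2, the fetal growth factor, was lower in the knockout in 4 of 4 pairs by 0.32 to 0.57 log2 units, although its arrays overlapped between genotypes (wild type 6.68, 5.81, 5.89 and 5.49, knockout 6.22, 5.49, 5.54 and 4.92). Dlk1, a membrane-bound and shed relative of the Notch ligands, was lower by 0.10 to 0.32 in the 4 pairs. Cdkn1c, the cyclin-dependent kinase inhibitor p57, was 5.06 to 5.25 in wild-type and 4.92 to 5.03 in knockout arrays, without overlap but by only -0.17 ± 0.08. Mest, Ndn and Cdkn1c were thus the 3 genes whose genotypes did not overlap. Of all genes 2.95% showed this, but the contrast chose the set, so the count is a description and no excess can be read from it.

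The other 4 genes differed between genotypes by less than their standard errors. Of these, Grb10 (3.19 to 3.93), Plagl1 (4.26 to 4.56) and Meg3 (4.36 to 4.67) lay under the array median (4.69 to 4.79) on all 8 arrays. Knockout Mest lay under it too, so small differences at that level say little about an effect on these genes. The adaptor gene Grb10, which dampens insulin and IGF receptor signals, differed by -0.14 ± 0.16 and was dim on 3 of 8 arrays. The zinc finger genes Plagl1 and Peg3 differed by -0.05 ± 0.08 and 0.04 ± 0.11, and the long noncoding RNA Meg3 by 0.02 ± 0.09. The 95% intervals were -0.50 to 0.23 for Grb10, -0.24 to 0.15 for Plagl1, -0.21 to 0.29 for Peg3 and -0.19 to 0.23 for Meg3. Meg3 and Dlk1 come from the same imprinted cluster, as do Igf2 and H19.

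**Figure D1:**
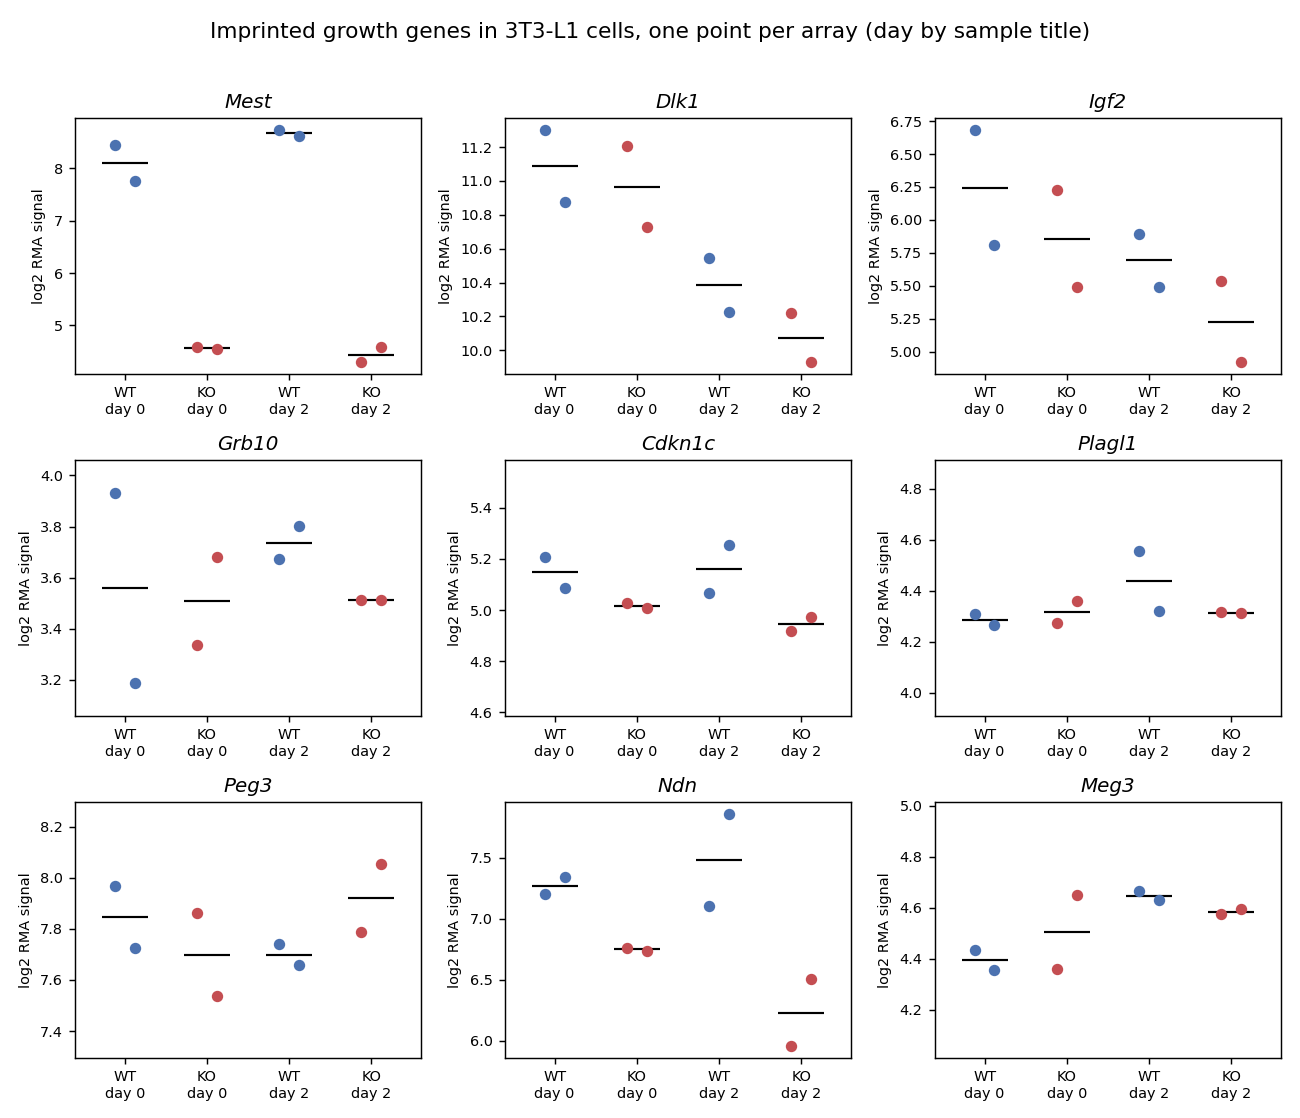
Log2 RMA signal of the 9 measured imprinted genes in 3T3-L1 cells, wild type (WT, blue) and MED1 knockout (KO, red), by title day; points are arrays, bars are means of 2, and the vertical scale differs between panels. Mest is between 7.76 and 8.73 in every wild-type array and between 4.30 and 4.58 in every knockout array.

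The genes beside Mest differed far less between genotypes than Mest did. On the reference the order is Cpa4, Cpa5, Cpa1, Cep41, Mest, Copg2, Tsga13 and Klf14, and all of these had a row. Copg2, a coat protein subunit gene that overlaps the end of Mest in the opposite direction, differed by -0.11 ± 0.08 in the cells. The centrosome gene Cep41 differed by 0.02 ± 0.09 and Klf14, an imprinted transcription factor gene, by -0.12 ± 0.09. The carboxypeptidase genes Cpa4, Cpa5 and Cpa1 differed by -0.34 ± 0.13, -0.11 ± 0.08 and 0.05 ± 0.11, and the testis gene Tsga13 by -0.02 ± 0.08. None of the 7 neighbours passed the limma threshold, a Benjamini-Hochberg adjusted p under 0.05 (adjusted p = 0.36 for Cpa4, the lowest).

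**Figure D2:**
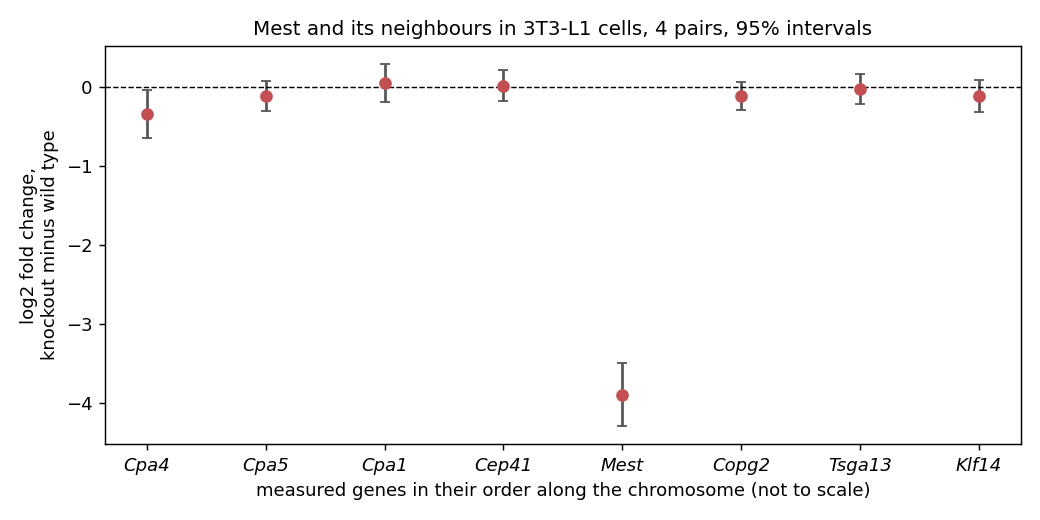
Log2 fold change, MED1 knockout minus wild type over 4 pairs of 3T3-L1 arrays with 95% limma intervals, for Mest and its measured neighbours in chromosomal order. Mest stands at -3.89 while the neighbours lie between -0.34 and 0.05.

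Over the 8 cell arrays, the genes with the pattern most like Mest by Pearson correlation were Hmcn1 (r = 0.99), Cd34 (0.98), Olfr206 (0.98), Kdm5c (0.98) and Cygb (0.97). These arrays share 2 genotypes, so any gene that differs by genotype correlates in this way, and the values are a description. Hmcn1 encodes an extracellular matrix protein and went from 5.75 to 6.32 in wild-type arrays to 4.47 to 4.64 in knockout arrays. Cd34, a surface protein of progenitor cells, went from 5.69 to 5.99 down to 4.35 to 4.51. Cygb, which encodes cytoglobin, had day means of 8.11 and 8.06 in the wild type and 6.66 and 6.37 in the knockout. Among the imprinted genes the correlation with Mest was 0.83 for Ndn, 0.83 for Cdkn1c, 0.42 for Igf2, 0.21 for Dlk1, 0.39 for Grb10, 0.36 for Plagl1, -0.0071 for Meg3 and -0.11 for Peg3.

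The same cell arrays differed in fat cell RNA on day 2. Of 15 measured adipocyte genes, 15 were lower in the knockout on day 2 (median -0.86). Of these 6 passed, Fabp4, Cidec, Pparg, Cebpa, Dgat2 and Retn, where 0.266% of all genes did. Pparg, whose product is the master regulator of adipogenesis, differed by -2.01 ± 0.13 (adjusted p = 0.00037). By title the list mean was 5.23 and 5.10 in wild-type and 5.21 and 5.07 in knockout arrays on day 0, and 6.30 and 6.25 against 5.31 and 5.40 on day 2. From day 0 to day 2, 15 of 15 were positive in the wild type (median 0.84, 10 called) and 11 of 15 in the knockout (median 0.11, 3 called). Of all genes, 9.07% and 5.7% were called there. The mean of 12 fibroblast genes was 9.52 to 9.80 on day 0 and 8.9973 to 9.22 on day 2, over both genotypes. The part of these in the values of Mest, Ndn, Dlk1 and the related genes below was not tested.

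Between day 0 and day 2 of differentiation, Dlk1 fell in knockout cells, the only change of the set past the threshold. Dlk1 gave 11.30 and 10.87 on day 0 and 10.54 and 10.23 on day 2 in wild-type cells, and 11.20 and 10.73, then 10.22 and 9.93, in knockout cells. In each genotype both day 2 arrays lay under both day 0 arrays. The limma change was -0.89 ± 0.21 in the knockout (adjusted p = 0.041) and -0.70 ± 0.21 in the wild type (adjusted p = 0.078). The difference between these changes was -0.19 ± 0.30 and did not pass. The knockout call was lost when any of the 4 knockout arrays was left out (adjusted p = 0.050 to 0.28), and with days by source label the change was -0.38 ± 0.45. Igf2 changed by -0.55 ± 0.34 in the wild type and -0.63 ± 0.34 in the knockout (adjusted p = 0.39 and 0.40). With the replicate number as a block, Dlk1 in the wild type (adjusted p = 0.0064) and Igf2 in both genotypes (0.038 and 0.031) passed too.

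Mest changed by 0.58 ± 0.21 in wild-type cells (adjusted p = 0.14) and by -0.12 ± 0.21 in knockout cells (0.86). Without the array of wild-type day 0 replicate 1 the wild-type change was 0.92 (adjusted p = 0.020), and by source label it was -0.40 ± 0.28. The genotype by day difference of Mest was -0.70 ± 0.30 and that of Ndn -0.73 ± 0.35, and neither passed. In all, 0 of 9 genes passed in the wild type and 1 of 9 in the knockout, against 9.07% and 5.7% of all genes. At an unadjusted limma p under 0.05 the counts were 2 of 9 and 1 of 9, against 22% and 17.3%. The genotype by day test called 0 of 22180 genes, with 1 of 9 imprinted genes and 4.24% of all genes at an unadjusted p under 0.05.

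Of 20 measured genes of the IGF axis, whose proteins bind, free or relay the IGFs, 2 passed lower and 0 higher in the knockout cells over the 4 pairs, where 0.289% of all genes passed. The list held 9 positive and 11 negative differences, with a median of -0.03 beside -6e-04 for all genes. They were Igfbp4, which binds IGF2 (-1.20 ± 0.09, adjusted p = 0.0018), and Pappa2, a protease that cuts IGF binding proteins (-0.66 ± 0.08, adjusted p = 0.030). Igfbp4 passed with each pair of arrays left out and Pappa2 with none (adjusted p = 0.090 to 0.13). On day 0 by title 2 of 20 passed, where 0.185% of all genes did, with Igfbp3 higher in the knockout (1.25 ± 0.17, adjusted p = 0.029) and Igfbp4 lower. On day 2 by title 2 of 20 passed, where 0.266% of all genes did, both lower: Igfbp4 and Pappa, the protease that cuts IGFBP4 (-1.92 ± 0.17, adjusted p = 0.0034). With 1 of the 8 arrays left out in turn, Pappa passed each time, Igfbp3 in 4 of 8 and Igfbp4 in 5 of 8 on each day, and they were lost only without arrays of that day. With days by source label none of these genes passed: Igfbp3 differed by 0.51 ± 0.54 on day 0 and Pappa by -1.30 ± 0.56 on day 2, and 1 gene and 0 genes of the table passed on those days. Over the pairs Igfbp4 (-1.20 ± 0.64) and Pappa2 (-0.66 ± 0.21) were lost as well in that fit, which has no pairs. Over the days, 5 genes of the axis rose in wild-type cells (Igfbp4, Pappa, Igfbp3, Irs2 and Igfbp7, by 0.49 to 1.55) and 3 fell (Irs1, Igf1 and Htra1). Of all genes, 9.07% passed over the days in the wild type and 5.7% in the knockout. In knockout cells Igfbp4 rose by 1.79 ± 0.12, and Igf1, Irs1 and Igfbp3 fell. With 1 array left out in turn the wild-type calls of Irs2, Igf1, Htra1 and Igfbp7 passed in 3, 3, 2 and 0 of 8 fits, and the knockout calls of Igfbp3 and Irs1 in 6 and 5, the rest in all 8. Igfbp3 thus passed in opposite directions, 0.95 ± 0.17 in the wild type and -0.999 ± 0.17 in the knockout, and the difference of these was -1.95 ± 0.23 (adjusted p = 0.10).

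Of 15 measured genes of the Notch pathway and its ligands, none passed between genotypes over the pairs (median 0.09), where 0.289% of all genes did. Over the days, the receptor gene Notch1 and the targets Hes1, Hey1 and Sox9 rose in wild-type cells (0.72 ± 0.13, 0.66 ± 0.17, 0.98 ± 0.17 and 0.68 ± 0.14). Notch1 and Hey1 rose in knockout cells as well (0.71 ± 0.13 and 0.88 ± 0.17). Of all genes, 9.07% passed over the days in the wild type and 5.7% in the knockout. Of the 6 cyclin-dependent kinase inhibitor genes other than Cdkn1c, Cdkn2a alone passed, lower by day 2 in the wild type (-0.65 ± 0.17, adjusted p = 0.049). With 1 array left out in turn Hey1 passed in 8 of 8 fits in the wild type and 6 of 8 in the knockout, Notch1 in 6 and 4, and in the wild type Sox9 passed in 6, Hes1 in 2 and Cdkn2a in 2. Days by source label set replicate 2 against replicate 1. With them no gene of the table passed in either comparison of days. The calls over the days of this and the other lists are lost there.

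Of 63 other measured imprinted genes, none passed over the 4 pairs (28 positive and 35 negative, median -0.03), where 0.289% of all genes did. On day 2, 0.266% of all genes passed. There Dcn, the matrix proteoglycan decorin that is imprinted in placenta, was lower in the knockout (-1.96 ± 0.16, adjusted p = 0.0016). So was Peg10, a retrotransposon-derived gene (-1.14 ± 0.16, adjusted p = 0.025). Dcn passed with any 1 of the 8 arrays left out and Peg10 in 3 of 8 such fits. With days by source label neither passed on day 2 (-1.19 ± 0.98 for Dcn and -0.68 ± 0.53 for Peg10). Peg10 rose over the days in wild-type cells by 1.25 ± 0.16, while Dcn, the amino acid transporter gene Slc38a4, Sgce, Impact and Ampd3 fell. In knockout cells Dcn fell by 2.32 log2 units and Slc38a4, Sgce and Impact fell too. Of all genes, 9.07% passed over the days in the wild type and 5.7% in the knockout. Near the other genes of the set, Lsp1 beside Igf2 and Stx11 beside Plagl1 fell over the days in both genotypes (-0.59 to -0.87). With 1 array left out in turn Sgce and Ampd3 passed in 7 and 6 of 8 fits in the wild type, Sgce and Impact in 4 each in the knockout, and, in wild type and knockout, Lsp1 in 5 and 2 and Stx11 in 5 and 6; the others named passed in all 8.

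In embryonic brown fat, all 9 genes had a higher mean in Myf5Cre Med1 f/f than in Myf5Cre Med1 f/w, and none passed the threshold. Higher means were found for 46.1% of all genes, and 1.16% of all genes passed. For 7 of the 9 the lowest knockout array lay above the highest control array, which held for 8.56% of all genes in that direction. At an unadjusted limma p under 0.05 the count was 8 of 9, against 20% of all genes. The median log2 fold change was 0.66 for the 9 genes and -0.01 for all genes.

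Peg3, a zinc finger gene known for fetal growth and maternal care, had the largest difference. The control arrays gave 9.56, 9.57 and 8.93 and the knockout arrays 10.05, 10.12, 10.34 and 10.27. Every knockout array was above every control, and the difference was 0.84 ± 0.17 (adjusted p = 0.066). Plagl1, a zinc finger regulator of other imprinted genes, gave 9.48, 9.44 and 8.94 in controls and 9.94, 9.78, 10.13 and 9.96 in knockouts. Its groups did not overlap either (0.66 ± 0.15, adjusted p = 0.076).

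Among the ligands, Dlk1 gave 9.11, 9.05 and 8.43 in controls and a narrow 9.60, 9.58, 9.56 and 9.48 in knockouts. It differed by 0.69 ± 0.16 (adjusted p = 0.079) without overlap. Igf2 gave 9.57, 9.63 and 9.15 against 9.73, 9.82, 9.86 and 9.70, which is 0.33 ± 0.12 (adjusted p = 0.19), and its lowest knockout array lay 0.07 above the highest control. Grb10 gave 9.15, 9.23 and 8.83 against 9.53, 9.47, 9.46 and 9.47, or 0.41 ± 0.10 (adjusted p = 0.081), without overlap.

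Cdkn1c had the widest controls of the set, 7.78, 7.16 and 6.54, beside knockouts at 8.26, 7.94, 7.70 and 7.97. The highest control lay above the lowest knockout, and the difference was 0.80 ± 0.28 (adjusted p = 0.18). Ndn overlapped too, with 7.83, 7.47 and 7.51 against 7.98, 8.05, 7.76 and 8.07 (0.36 ± 0.11, adjusted p = 0.15). Meg3 gave 4.56, 4.43 and 3.69 against 4.95, 4.72, 4.96 and 5.13, without overlap (0.71 ± 0.21, adjusted p = 0.13).

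Mest, the gene with the strongest change in the cells, had the smallest in the embryo. It gave 11.31, 11.32 and 11.23 in controls and 11.34, 11.44, 11.42 and 11.35 in knockouts. The groups were apart by 0.02, and the difference was 0.10 ± 0.05 (adjusted p = 0.34, 95% interval -0.02 to 0.22). A fall of the size in the cells lies far outside that interval, in a tissue and with alleles other than those of the cells.

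**Figure D3:**
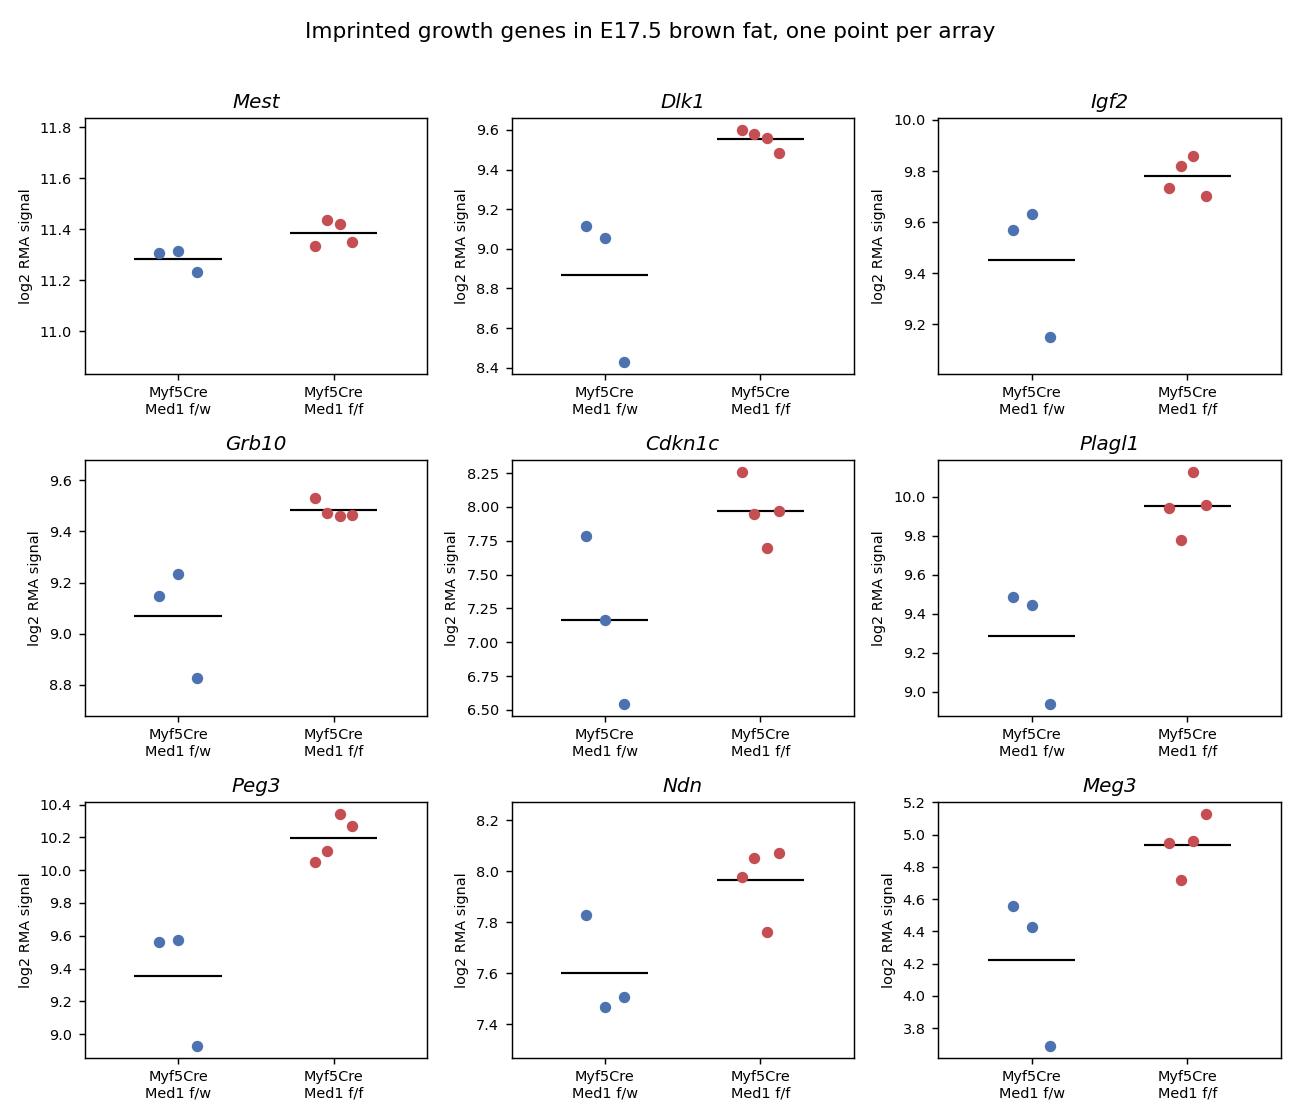
Log2 RMA signal of the 9 measured imprinted genes in E17.5 interscapular brown fat, Myf5Cre Med1 f/w (blue, 3 arrays) and Myf5Cre Med1 f/f (red, 4 arrays); points are arrays in replicate order, bars are means, and the vertical scale differs between panels. The red points lie above the blue ones except in Cdkn1c and Ndn, and control replicate 3 is the lowest control in 8 of 9 panels.

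Control replicate 3 was the lowest control array for 8 of the 9 genes. Without it all 9 differences kept their sign but ran from 0.07 to 0.63, with 0.63 for Peg3, 0.49 for Plagl1, 0.49 for Cdkn1c, 0.47 for Dlk1, 0.45 for Meg3 and 0.18 for Igf2. Leaving out any 1 array called 0 of the 9 genes, and 0 genes of the table. Some calls changed with the genes and arrays in the fit. Dlk1, Peg3, Plagl1 and Grb10 passed when the dimmer genes were left out (adjusted p = 0.027 to 0.043), and Dlk1, Meg3, Plagl1 and Cdkn1c when all 19 arrays shared 1 estimate of the spread (0.0043 to 0.022).

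The same arrays differed in their muscle and connective tissue RNA. Of 23 skeletal muscle genes, 21 had a higher mean in the knockout (median 1.01, 0 called, 16 at an unadjusted limma p under 0.05). Their mean signal was 5.92, 5.92 and 5.02 in controls and 6.37 to 6.51 in knockouts, so control replicate 3 was lowest here too. Embryonic myosin, Myh3, ran from 6.41 to 8.37 in controls and 8.79 to 9.28 in knockouts. Of 12 fibroblast genes, 12 had a higher mean (median 0.60), with Col1a1 (0.60 ± 0.09, adjusted p = 0.046) and Col3a1 (0.63 ± 0.10, adjusted p = 0.048) past the threshold, and their mean was 8.07 to 8.52 in controls and 8.76 to 8.95 in knockouts. Of 15 adipocyte genes 14 had a lower mean (median -0.49, 0 called), and of 17 brown fat genes 14 did (median -0.85). Ucp1 (-3.14 ± 0.40, adjusted p = 0.044) and Dio2, which activates thyroid hormone (-1.66 ± 0.17, adjusted p = 0.036), fell. In whole tissue, more or fewer cells of a type cannot be told apart from more or less RNA per cell. With the mean of the muscle genes as a covariate, an alternative chosen after seeing the data, the differences of the 9 genes ran from -0.05 (Igf2) to 0.31 (Peg3). With the mean of the fibroblast genes they ran from -0.65 (Cdkn1c) to 0.33 (Peg3), and 0 genes of the table passed in either fit. Neither mean overlapped between the groups, so these fits cannot tell the covariate from the genotype. No share of the differences can be read from them.

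**Figure D4:**
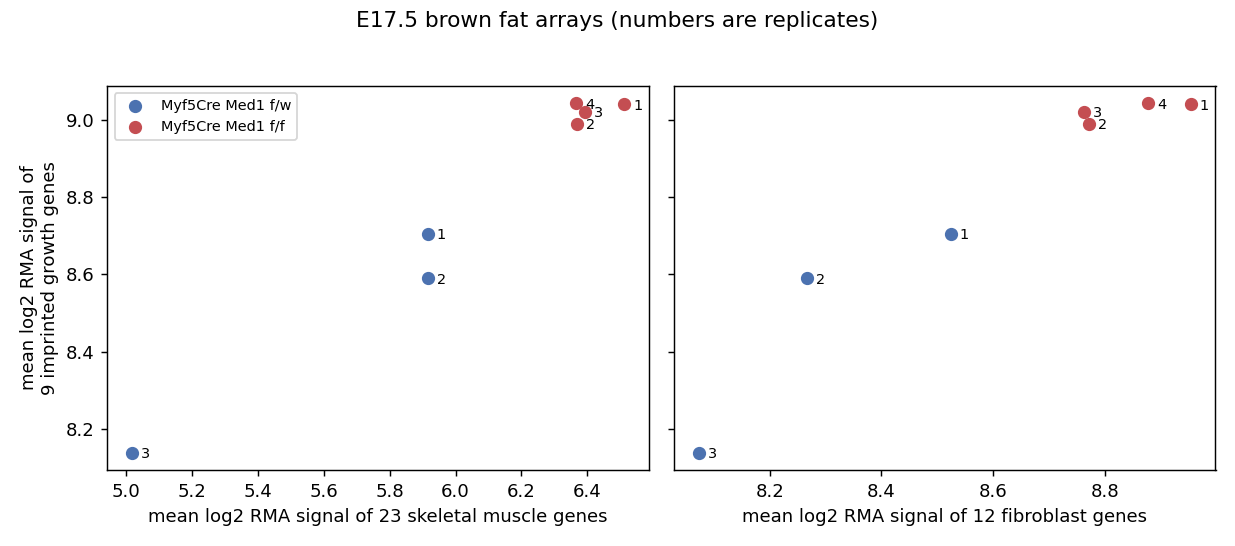
Mean log2 RMA signal of the 9 imprinted genes against that of 23 skeletal muscle genes (left) and 12 fibroblast genes (right) on each E17.5 array, Myf5Cre Med1 f/w in blue and Myf5Cre Med1 f/f in red, numbered by replicate. Control replicate 3 is lowest on all 3 measures (8.14 for the imprinted genes) and the 4 knockout arrays are together at the upper right (8.99 to 9.04).

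By the same likeness rule, the genes most like Igf2 over the 7 embryonic arrays were Emilin1, an elastic fibre gene, Bora, Net1, 2410002F23Rik and Tnnt3, fast skeletal troponin T (r = 0.98 for each). Tnnt3 lies near Igf2 on the chromosome and is also among the 23 muscle genes. It gave 6.38 to 7.89 in controls and 8.48 to 8.79 in knockouts. Among the imprinted genes, r with Igf2 was 0.96 for Dlk1, 0.94 for Grb10, 0.94 for Peg3, 0.92 for Plagl1, 0.91 for Mest, 0.90 for Meg3, 0.82 for Cdkn1c and 0.61 for Ndn. These 7 arrays share the 2 groups and the muscle signal described above.

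Of the other imprinted genes in the embryo, 2 of 63 passed, Gab1, a docking protein of growth factor receptors (0.54 ± 0.09, adjusted p = 0.046), and Pon3, a lactonase (-0.97 ± 0.11, adjusted p = 0.036). Their median was 0.08, with 38 positive and 25 negative. In the IGF axis 1 of 20 passed, Igfbp4 (0.71 ± 0.09, adjusted p = 0.044), with a median of 0.15. Gab1, Pon3 and Igfbp4 were lost whichever array was left out (adjusted p = 0.051 to 0.14), as were the collagen genes, Ucp1 and Dio2. Igfbp4 was thus lower without MED1 in the cells and higher in the Myf5Cre Med1 f/f embryos. In the Notch list 0 of 15 passed (4 at an unadjusted limma p under 0.05), with Sox9 (1.19 ± 0.28, adjusted p = 0.083) and Notch2 (0.56 ± 0.12, adjusted p = 0.072) largest. None of the 6 other kinase inhibitor genes passed (2 at an unadjusted limma p under 0.05), and the largest were Cdkn1a (-0.46 ± 0.16) and Cdkn1b (0.19 ± 0.08).

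In adult brown fat the 9 genes showed no common direction. Of them 5 were higher and 4 lower in AdipoqCre Med1 f/f, with a median of 0.06, and 50.5% of all genes were higher. None passed in limma, where 0.0271% of all genes did, and 1 of 9 had an unadjusted p under 0.05, against 13.6% of all genes. The groups of 2 did not overlap for 5 of 9, against 41.9% of all genes. Mest gave 3.97 and 3.69 in controls and 4.48 and 4.05 in knockouts, without overlap (0.44 ± 0.20, adjusted p = 0.45). Dlk1 gave 3.34 and 3.10 against 2.75 and 2.89, without overlap (-0.40 ± 0.15, adjusted p = 0.36). These Dlk1 signals lay near the array medians (2.87 to 2.89).

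Peg3 had the widest adult spread, with 5.53 and 7.69 in controls and 5.69 and 6.44 in knockouts. Its difference of -0.54 ± 0.72 became 0.54 without control replicate 2 and -1.63 without control replicate 1. The skeletal muscle mean was 2.91 and 3.84 in controls and 2.89 and 3.43 in knockouts in the same order, so the arrays with more Peg3 had more muscle RNA, and its part was not tested. Of the 23 muscle genes 5 were higher and 18 lower in the knockout (median -0.11, 0 called). Ndn gave 5.58 and 4.88 against 4.96 and 4.62 (-0.44 ± 0.27), and Igf2 3.60 and 3.40 against 3.50 and 3.27 (-0.12 ± 0.16). Both overlapped. Grb10, Plagl1 and Cdkn1c were higher in both knockout arrays than in both controls (0.44 ± 0.21, 0.32 ± 0.14 and 0.28 ± 0.15; adjusted p = 0.47, 0.41 and 0.50), and Meg3 was level (0.06 ± 0.15).

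The adult knockouts also differed in marker RNA. Of 15 adipocyte genes 13 had a lower mean (median -0.70, 0 called; means 10.22 and 10.09 in controls against 9.51 and 9.0038 in knockouts), and of 17 brown fat genes 14 did (median -0.62, 0 called; 8.18 and 8.65 against 7.36 and 7.63). All 12 macrophage genes had a higher mean (median 1.34, 0 called), with list means of 5.53 and 5.36 in controls and 6.72 and 6.92 in knockouts, and 12 of 12 fibroblast genes did (median 0.63; means 6.94 and 6.74 against 7.59 and 7.46). The part of these in the imprinted genes was not tested. No gene of the 4 related lists passed in the adult. The largest differences were Ano1, a chloride channel gene imprinted in placenta (-3.33 ± 0.41, adjusted p = 0.079), the imprinted zinc finger gene Zim1 (-1.35 ± 0.51), the IGFBP-cutting protease gene Htra1 (1.49 ± 0.18, adjusted p = 0.075), Igfbp7 (1.26 ± 0.17), the Notch ligand gene Jag1 (1.15 ± 0.30), Notch2 (0.65 ± 0.26), Cdkn1a (0.54 ± 0.52) and Cdkn2c (0.51 ± 0.14). Zim1 gave 3.65 and 5.25 in controls and 3.07 and 3.14 in knockouts, and differed by -0.55 without control replicate 2 and -2.15 without control replicate 1. Without control replicate 1 or 2, Cdkn1a was -0.25 or 1.32, Jag1 0.80 or 1.51 and Notch2 0.92 or 0.38. Cdkn1a was 0.32 without knockout replicate 2, and Notch2 0.41 without knockout replicate 1. At an unadjusted limma p under 0.05 the counts were 14 of 63 other imprinted genes, 8 of 20 of the IGF axis, 2 of 15 of the Notch list and 2 of 6 kinase inhibitors.

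**Figure D5:**
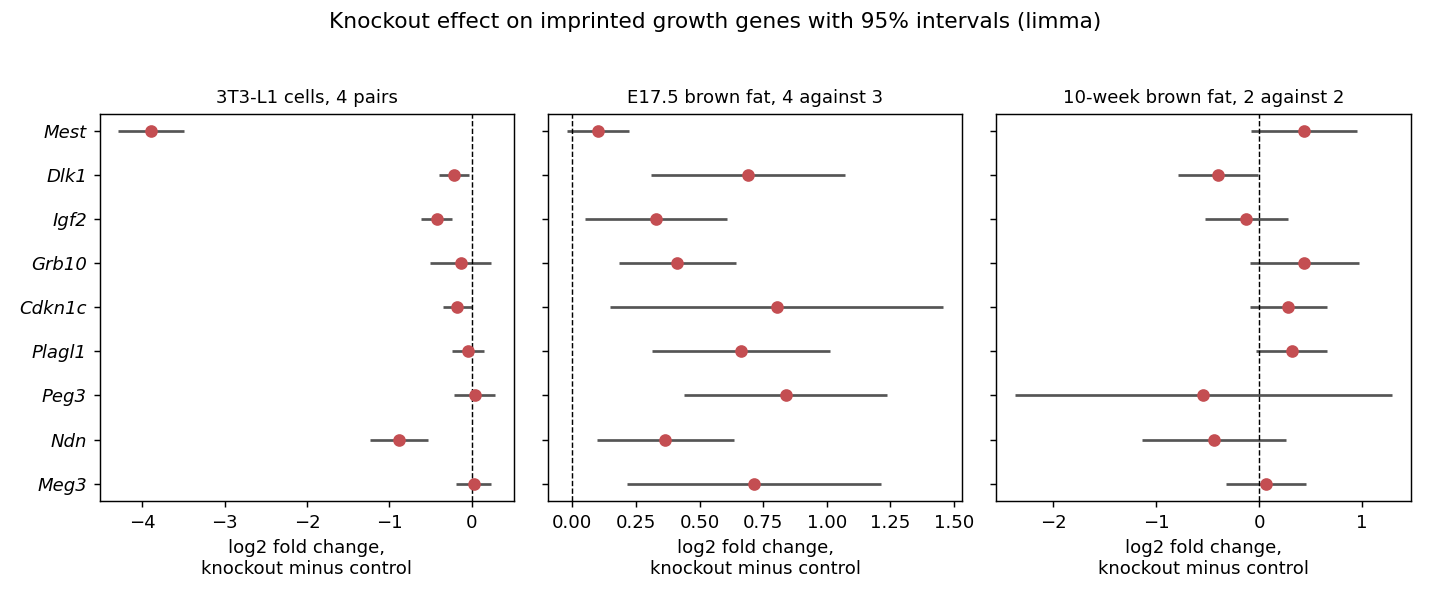
Log2 fold change of the 9 imprinted genes, knockout minus control, with 95% limma intervals, in 3T3-L1 cells (4 pairs), E17.5 brown fat (4 against 3 arrays) and 10-week brown fat (2 against 2); the horizontal scales differ. Mest at -3.89 dominates the cells, all 9 points are above 0 in the embryo, and 4 are below 0 in the adult.

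Whether the knockout effect differed between the brown fat experiments was tested as a difference of differences over the 11 arrays. It compares the effect of Adipoq-Cre at 10 weeks with that of Myf5-Cre at E17.5, so age, Cre and control genotype change together and cannot be told apart. None of the 9 genes passed (3 at an unadjusted limma p under 0.05, against 16.3% of all genes), and 1.99% of all genes did. Dlk1 came nearest, with an effect lower in the adult by 1.09 log2 units (-1.09 ± 0.25, adjusted p = 0.052). In the adult Dlk1 was near the array median and had no value when dim genes were left out. It passed without embryonic control replicate 1 (-1.21, adjusted p = 0.045) or replicate 3 (-0.87, adjusted p = 0.027), and over all its alternatives the adjusted p ran from 0.027 to 0.12. Peg3 differed by -1.38 ± 0.67 and passed without adult control replicate 1 (-2.46, adjusted p = 0.018), while without control replicate 2 it was -0.30. Ndn differed by -0.80 ± 0.28 (adjusted p = 0.18) and Mest by 0.34 ± 0.18 (0.39). Pon2 (0.94 ± 0.15), Pon3 (0.93 ± 0.16) and Ampd3 (-0.88 ± 0.14) passed among the other imprinted genes, Igfbp7 (1.25 ± 0.17) and Htra1 (0.999 ± 0.19) in the IGF axis, and Lsp1 (0.93 ± 0.13) beside Igf2. With 1 of the 11 arrays left out in turn Htra1 passed in 3 fits and Pon3 in 8, and the others in all 11.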

How the data were processed

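RNA of 19 samples was hybridised to Affymetrix mouse whole-transcript arrays, a microarray for each sample, after Trizol extraction and the GeneChip WT PLUS kit, per the labels' protocols. The authors deposited 1 table of log2 values, made with RMA in Transcriptome Analysis Console per the submitters' processing notes. The genome build is not given in the sources used here. Of 41345 transcript clusters, 23521 had 1 gene symbol in the platform annotation, 1814 several and 16010 none. Their number of arrays, not a depth, limits precision.

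Two-sided linear models were fitted with limma 3.58.1 (R 4.3.3; lmFit, eBayes) over all 22180 genes, with Benjamini-Hochberg adjustment and a threshold of 0.05. Values after ± are standard errors. The cell comparison over both days used the 4 pairs of wild-type and knockout arrays with the same day and replicate number as a block, since both kinds of label put them together. The day comparisons came from a fit of 4 groups, and the embryo and adult had a fit each. Same-numbered arrays were checked by the correlation of their deviations from the group means (0.35 on day 0 and 0.30 on day 2 between genotypes, 0.03 and 0.17 between days, 0.31, -0.02 and 0.11 in the embryo, 0.33 in the adult), and no block was used elsewhere. The fits were tested on simulated data.

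All 10 genes were described whatever their result, with related genes by count, each one that passed, and otherwise up to 2 with the largest fold change. For these genes, neighbours and lists, the choice was made with earlier results of these data known. Alternatives were the block, intensity trend, robust fitting, median centring, a filter on dim genes, other clusters, all 19 arrays in 1 fit, the source label's days and leaving out each array. Promoter and microRNA sequences came from RefSeq (GRCm38.p6).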

Additional observations from a re-analysis of the deposited data

Results flagged for a closer look

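Grb10 in the 4 Myf5Cre Med1 f/f embryos had its highest array (replicate 1, 9.53) far from the other 3 (9.46 to 9.47), the gap being 0.845 of the group's range. The whole range was 0.07 log2 units, and the group remained above the controls without that array. In all, 10 sets of values, each of a gene in a group of arrays, were looked at in this way, and chance marks about 1 in 20. Sets over the same arrays are not independent.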

How the results depend on the processing

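Over 1314 values of single genes under an alternative, 1245 kept their side of the threshold and kept their sign or shifted under a standard error. A kept sign allowed any change in size. Another 35 stayed uncalled but changed sign by a standard error or more, 27 passed newly and 7 no longer passed. No called value changed sign. Those totals include the genotype contrast in the cells, and since it chose the 9 genes, their calls in it are not counted separately. In the cells over both days the table had 244 calls with an intensity trend, 198 without dim genes and 170 with all 19 arrays. It had 9 without the block and with source label days. On day 0 the table had 1 call by source label and 88 with all arrays, and on day 2 it had 0 and 120.

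The replicate block is reported because the numbers are shared, not because they are known to pair arrays. With it 2 of the 9 genes passed over the days in each genotype, 1 gene of the table by genotype and day, 0 in the embryo and 139 in the adult. In the comparisons of days, source label days called 0 genes of the table in both genotypes and 0 of the 9 in the knockout. The wild type had 1 call without dim genes and 1 with all arrays, and the knockout 0 after median centring (Dlk1, adjusted p = 0.053). Genotype by day gave 11 genes with all arrays.

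In the embryo 4 of the 9 passed without dim genes and 4 with all arrays, and the table had 0 calls with a trend, 386 after centring, 1296 without dim genes, 1527 with all arrays and 0 with either covariate. In the adult the table had 37, 52, 64, 107 and 2049 calls with trend, robust fitting, centring, no dim genes and all arrays. Between brown fat experiments 1 of the 9 (Dlk1) passed after centring, without dim genes and with all arrays, which called 773 genes. The dim filter there used the mean over the arrays of both experiments. Dlk1 was kept through its embryonic signal and had no value without dim genes in the adult alone, so that call adds no support. The causes were not tested, save that dropping dim genes tests fewer genes and all arrays share 1 spread.

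For genotype in the cells, leaving out each array in turn gave 20 to 32 calls in the table over both days. It gave 3 to 40 on day 0 and 12 to 47 on day 2. Calls among the 9 are not counted there, since that contrast chose them. Over the days, calls among the 9 were 0 to 1 in the wild type (1143 to 1714 in the table). They were 0 to 1 in the knockout (496 to 1282) and 0 to 0 by genotype and day (0 to 2). In the embryo and adult they were 0 to 0 (0 to 0 in each), and between brown fat experiments 0 to 1 (206 to 524). Without dim genes Meg3, Plagl1, Cdkn1c and Grb10 had no value in cells, nor Dlk1, Meg3 and Plagl1 in the adult. For the median centring, array medians over the 22180 genes tested differed by at most 0.05 within an experiment.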
